A study of Homo sapiens with 6 samples.

Results

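The Src family of tyrosine kinases and their shared inhibitor CSK were followed in the human myeloma line JJN3, with YES1 as the member that led to their choice. The members are 8 genes, YES1, SRC, FYN, LYN, LCK, BLK, FGR and CSK, of 19777 genes named on the array. They were taken as every probe set whose platform annotation names exactly 1 gene, that gene matching a member by Entrez identifier, which gave 24 of the 54613 probe sets other than controls. The family was chosen by a measured value: the brightest YES1 probe set was among the probe sets of smallest p that were higher with the CKS1B shRNA in an earlier analysis of these arrays, so the values of YES1 in that comparison are given as a description with no test.

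JJN3 is an established line derived from a plasma cell malignancy. The study hybridised total RNA of these cells to 6 arrays of the Affymetrix U133 Plus 2.0 type. In 3 of the samples a short hairpin RNA (shRNA) was directed at CKS1B, a partner of cyclin-dependent kinases, and in the other 3 the shRNA had a scrambled sequence. Both groups were transduced with a virus, and the labels give no time after transduction and do not say whether separate cultures were used within a group, so any p-value measures the spread between arrays alone, and that spread may be technical. The arrays of each group carry the letters A, B and C, and scrambled array B also bears the unexplained word poly in its title. Each value is a MAS5 intensity on a linear scale, and each difference is the CKS1B shRNA mean minus the scrambled mean of log2(value + 16), a scale that shrinks the differences of dim probe sets.

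Src family kinases are membrane-bound through a lipid at the N-terminus and carry an SH3 domain, an SH2 domain and a kinase domain. CSK phosphorylates a tyrosine in their C-terminal tail, which folds the kinase into its inactive form, and phosphatases remove that phosphate. SRC, YES1 and FYN are found in many tissues, while LYN, LCK, BLK and FGR are found mainly in blood cells: LYN and BLK act at the B cell receptor, LCK at the T cell receptor, and FGR mainly in myeloid cells.

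The sequence before an annotated start is shown for YES1, whose bright probe sets read above the array median on all 6 arrays, and for LCK, a T cell kinase that did so on none but CKS1B shRNA array B. Each run is the 250 bases before the start in RefSeq, read 5′ to 3′ on the strand of the gene in build GRCh38.p14, with matches to the GC box GGGCGG or its complement CCGCCC, a motif bound by factors of the SP1 family, in capitals. The YES1 window is chr18:812243-812492 on the minus strand and lies inside the annotated span of the gene, a span that begins farther upstream. The LCK window is chr1:32251015-32251264 on the plus strand, before the first start of that gene.
YES1: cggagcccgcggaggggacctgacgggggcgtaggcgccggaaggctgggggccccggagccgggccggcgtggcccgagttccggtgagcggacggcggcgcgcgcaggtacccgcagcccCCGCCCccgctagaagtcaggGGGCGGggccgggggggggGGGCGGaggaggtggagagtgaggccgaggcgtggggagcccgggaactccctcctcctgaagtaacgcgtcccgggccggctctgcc
LCK: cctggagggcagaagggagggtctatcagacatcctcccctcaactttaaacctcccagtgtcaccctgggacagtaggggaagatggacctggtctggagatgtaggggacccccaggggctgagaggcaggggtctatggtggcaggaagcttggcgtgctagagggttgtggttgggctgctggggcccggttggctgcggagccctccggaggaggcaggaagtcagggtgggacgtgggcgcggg
The YES1 window held 3 matches and 32 CpG dinucleotides, and the LCK window 0 matches and 7 CpG. Over the 300 bases that include 50 bases after the start, YES1 had 39 CpG and LCK 10, where the median of all 35116 such windows was 14. A GC box was present in 45.0% of those windows. Of the 8 members, 5 had windows (10 in all, 4 of them of FYN), and the box was in those of YES1 and FGR and in 2 of the 4 of FYN, but in neither of the 2 of LCK nor in that of CSK. FGR, whose probe set read below the array median on all 6 arrays, thus has the box as YES1 does. Over the 300 bases, the CSK window held 4 CpG, those of FGR 18 and 4, and the second of LCK 4. Those of FYN held 26, 55, 8 and 2.

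Among the 6 arrays, the one with CKS1B shRNA and letter B was set apart by measures over all probe sets and by control probe sets. Its Pearson correlation with the rest, over the log2 values of all probe sets, was 0.577 to 0.610, against 0.879 to 0.958 among the other 5. Its median value was 334, against 117.5 to 201.6 elsewhere, and its actin 3′ to 5′ ratio, which rises when RNA is degraded, was 12.4 against 1.05 to 2.93. The 2.93 was that of CKS1B shRNA array C, where CKS1B shRNA array A had 1.11 and the scrambled arrays 1.05 to 1.66. The other 5 arrays are thus not balanced in this ratio. Of the 8407 probe sets with a scrambled mean of 1000 or more, the median read at 0.486 of that mean on array B, against 1.05 and 0.967 for arrays A and C of the same group. Of the 20697 with a scrambled mean under 100, the median on array B was 3.78 times that mean, against 0.593 and 0.763 on arrays A and C. Results are therefore given with all 6 arrays and with the 5 left without array B. The targeted gene, CKS1B, read 481, 269 and 828 (arrays A, B and C) with its own shRNA, against 8266, 8441 and 7294 with the scrambled one (two-sided exact permutation test p = 0.1, the smallest that 3 against 3 allow). Its log2 difference was -4.02 (SE 0.44, adjusted p = 0.122 in limma), and -3.63 (SE 0.27, adjusted p = 3.15e-05) without array B. Of the 8 plasma cell markers, 7 read above the array median on every array, the exception being SLAMF7.

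Which kinases the line expresses was read from the rank within each array, since the table comes without detection calls: a gene was counted where at least 1 of its probe sets read above the array median on all 6 arrays. By that rule 4 of the 8 genes were present, YES1, FYN, LYN and SRC, and CSK made 5 without CKS1B shRNA array B. LCK, BLK and FGR were not. The same rule also counted 5 of 20 marker genes of other tissues, ACTC1, KRT10, MB, MBP and SYT1, on all 6 arrays, so a gene above the median is not by that alone shown to be expressed. Counted by probe set, 6 of 24 (25%) read above the median on all 6 arrays, against 28.6% of all probe sets. On the 5 arrays without array B it was 9 of 24 (37.5%), against 36.4% of all. Levels of different probe sets depend on their probes and were not set against each other.

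**Figure D1:**
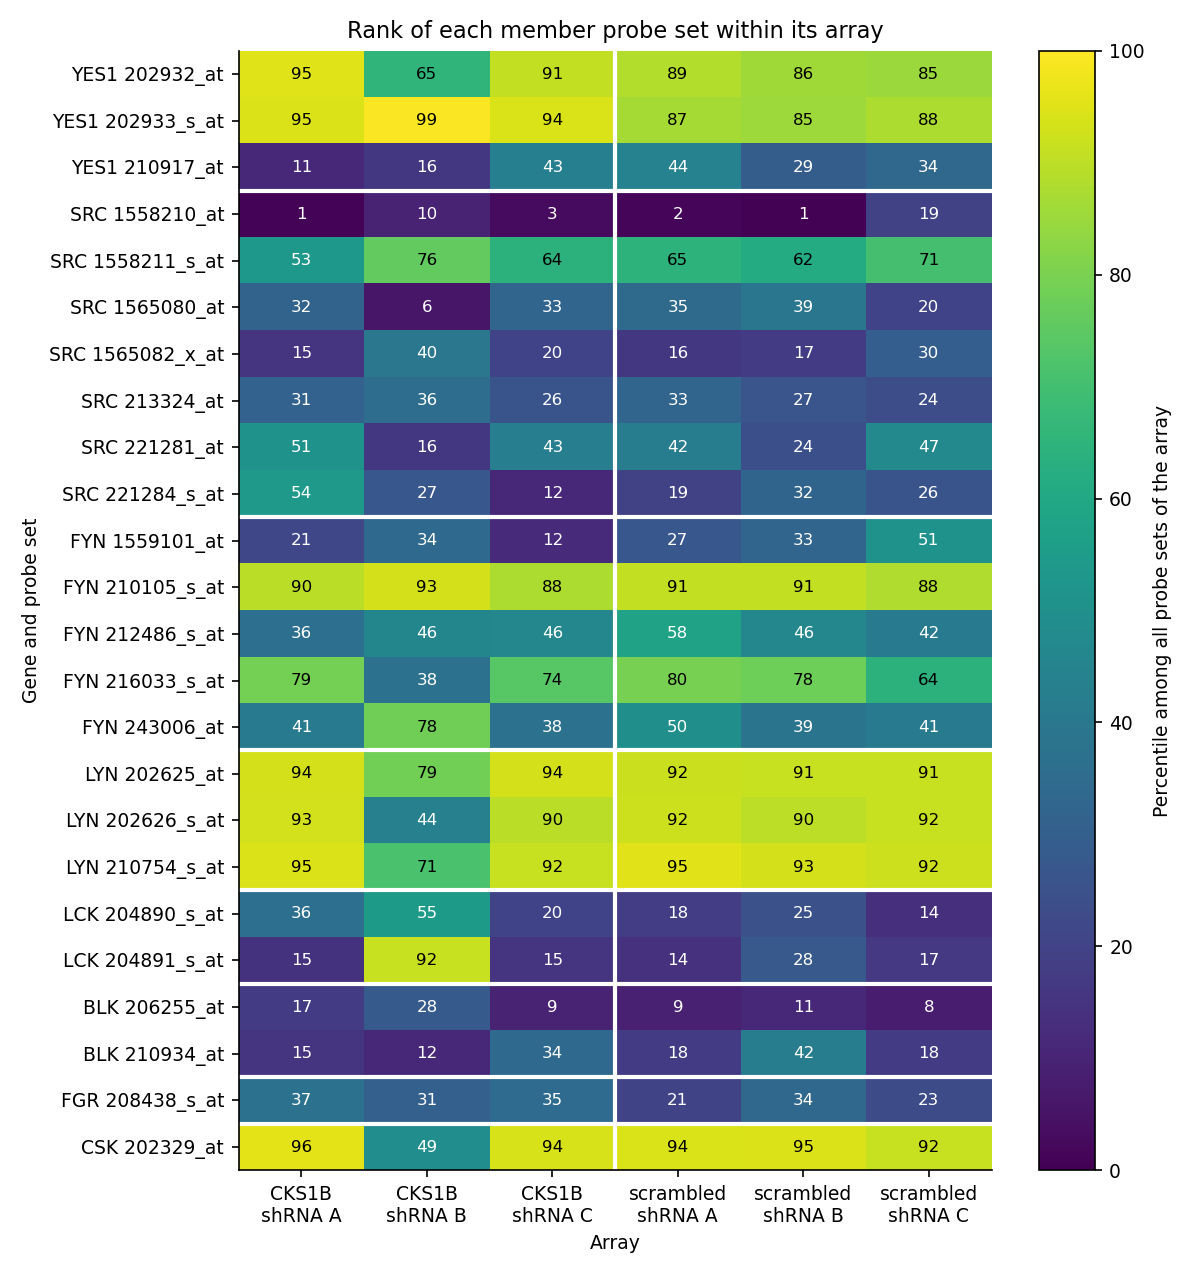
Percentile of each of the 24 member probe sets (down) among all probe sets of its array, for the CKS1B shRNA and the scrambled shRNA arrays (across), from dark (0) to bright (100). LYN, CSK and the bright probe sets of YES1 and FYN rank high on most arrays, and CKS1B shRNA array B departs from the other 5, with CSK at 48.9 there and at least 91.6 elsewhere.

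LYN was present through all 3 of its probe sets on the 5 arrays without CKS1B shRNA array B. There they ranked between the percentiles 89.8 and 95.3, high in the distribution of each of those arrays. CSK, the inhibitor, ranked between 91.6 and 96.0 on the same arrays. FYN was present through its brightest probe set, 210105_s_at, at the percentiles 87.8 to 93.5 on all 6 arrays. Another FYN probe set, 216033_s_at, ranked between 64.3 and 79.6 on the 5 arrays and at 37.5 on array B, and the other 3 read above the median on 1 array each.

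SRC was above the median on all arrays through 1 of its 7 probe sets, 1558211_s_at, at the percentiles 53.2 to 76.1. Its suffix marks a design in which probes can match more than 1 transcript. Of the other 6 SRC probe sets, 4 read above the median on no array and 2 on 1 array each. The SRC call therefore rests on 1 probe set close to the threshold, and SRC no longer counted with the threshold at the 75th percentile.

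For the kinases of other blood cells the values were low on the 5 arrays without CKS1B shRNA array B. BLK read 18.6 and 71.1 at 210934_at on CKS1B shRNA arrays A and C, against 23.4, 91.9 and 60.6 on the scrambled arrays A, B and C. Its other probe set, 206255_at, read 12.8 to 38.5 on these 5 arrays. FGR read 67.8 and 75.1 on these CKS1B shRNA arrays, against 27.9, 62.1 and 74.8 on the scrambled arrays. LCK read 18.0 and 22 at 204891_s_at on the same 2 CKS1B shRNA arrays, against 18.5, 44.3 and 58.3 on the scrambled arrays. Of these 5 probe sets of BLK, FGR and LCK, 0 read above the array median on any of the 5 arrays. Of 5 B cell markers analysed, MS4A1 alone had a probe set above the median on all 6 arrays, CD79A joined it on the 5 arrays, and of 5 myeloid markers 0 did on either.

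On CKS1B shRNA array B the same LCK probe set read 1381, at the percentile 91.5, and the other LCK probe set 375. T cell markers were also high on that array: the 7 probe sets of 6 marker genes summed to 5909 on array B, against 971 and 1296 on the arrays A and C of that group and 858 to 2093 with the scrambled shRNA. Of the 6 genes, CD2 and CD5 had a probe set above the median on all 6 arrays. CD3E and CD3D, chains of the T cell receptor complex, read 1235 and 1219 on array B. Among the 7, only the probe set of CD8A was low there, at 38.7 against 271 to 344 on the other 5 arrays. Markers of other tissues, such as liver, muscle and brain, were high there too, with 45 probe sets summing to 25185 on array B against 7886 to 12723 elsewhere. Of all 20697 probe sets with a scrambled mean under 100, 461 (2.23%) read above 1000 on array B and 0 did on arrays A and C. The part of these in the LCK value was not tested.

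YES1, the kinase that led to the choice of the family, read higher with the CKS1B shRNA at its 2 bright probe sets on arrays A and C, while array B split them. At 202933_s_at it read 3294, 7225 and 2839 with the CKS1B shRNA (arrays A, B and C), against 1215, 1084 and 1241 with the scrambled shRNA. No scrambled array reached any of the CKS1B shRNA values, and array B was the highest. The means were 4453 ± 2412 with the CKS1B shRNA and 1180 ± 84.2 with the scrambled shRNA (SD, n = 3 each), a log2 difference of 1.78 (SE 0.44), or 3.43-fold. Without array B the difference was 1.36 (SE 0.25), or 2.57-fold. The suffix of this probe set, too, marks a design that can match more than 1 transcript.

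The second probe set, 202932_at, which lacks that suffix, read 3407, 497 and 1752 with the CKS1B shRNA. With the scrambled shRNA it read 1467, 1119 and 993.7. Arrays A and C lay above all scrambled arrays and array B below all of them. The log2 difference was 0.29 (SE 0.60) with 6 arrays and 1.04 (SE 0.31), or 2.06-fold, without array B. Array by array of the same letter, the differences at 202933_s_at were 1.43, 2.72 and 1.18 for A, B and C, and those at 202932_at were 1.21, -1.14 and 0.81.

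On array B the pair of probe sets thus read at 6.12 and 0.417 times their own scrambled means of 1180 and 1193. Of the 8407 probe sets with a scrambled mean of at least 1000, 23.5% read above that mean on array B. The third YES1 probe set, 210917_at, was dim, at 14.0, 96.7 and 104.5 with the CKS1B shRNA and 96.7, 48.6 and 112.5 with the scrambled shRNA, and below the array median on all 6 arrays. Its groups overlapped (log2 difference -0.40, and -0.70 without array B).

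**Figure D2:**
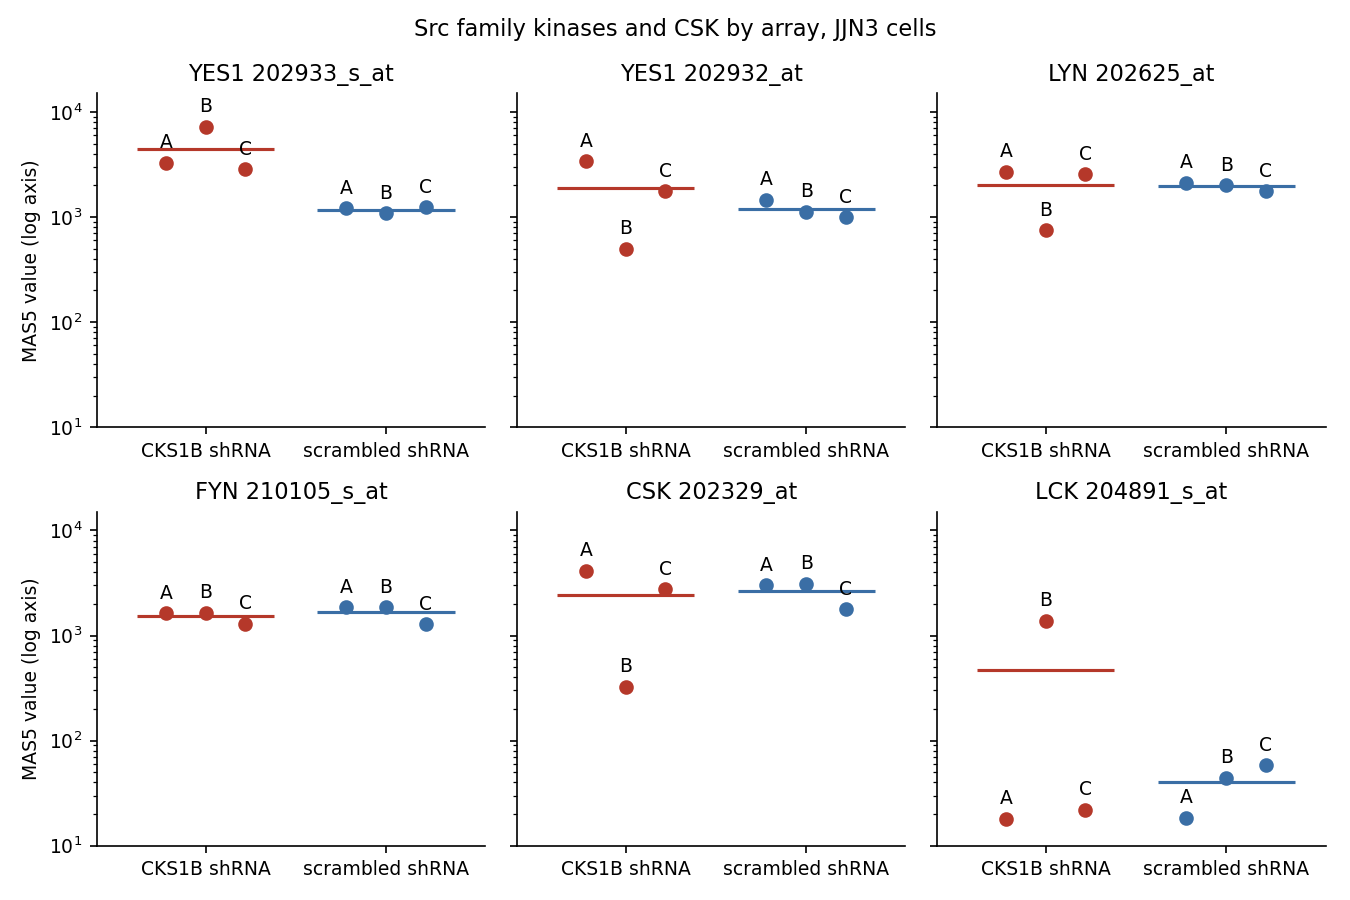
MAS5 values on a log axis for 6 probe sets of YES1, LYN, FYN, CSK and LCK, with the CKS1B shRNA arrays left and the scrambled shRNA arrays right, each point an array with its letter and each line a group mean. At 202933_s_at of YES1 all 3 CKS1B shRNA arrays lie above the scrambled arrays, at 202932_at array B lies below them, and LCK is above 1000 on array B alone.

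The other 7 genes did not pass the test, and 11 of their 21 probe sets had the other sign once CKS1B shRNA array B was left out. In limma over all 54613 probe sets, 0 of 21 member probe sets other than those of YES1 had an adjusted p under 0.05 with 6 arrays, and 0 had an unadjusted p under 0.05. Over all probe sets 0% were called higher and 0% lower, with 965 at an unadjusted p under 0.05. Without array B again 0 of the 21 passed (smallest adjusted p = 0.915 in limma), where 0.00916% of all probe sets were called higher and 0.011% lower. Over all 24 member probe sets, 13 were higher and 11 lower with 6 arrays (median log2 difference 0.01, against 0.12 for all probe sets). Without array B, 10 were higher and 14 lower (median -0.14, against -0.15 for all).

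**Figure D3:**
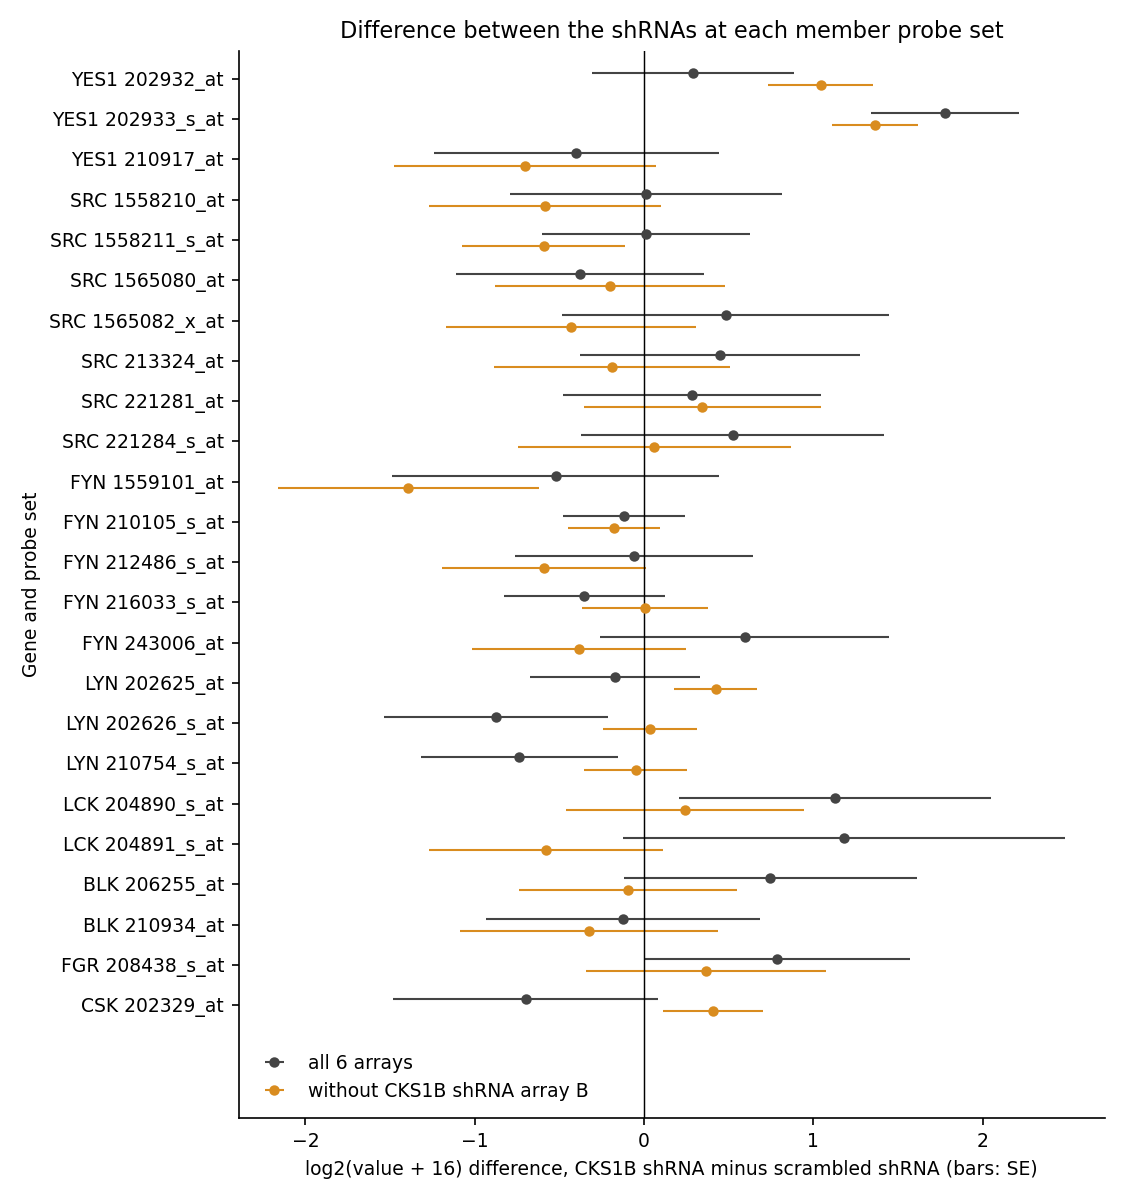
Log2 difference, CKS1B shRNA minus scrambled shRNA, at each member probe set with its SE, for all 6 arrays (dark) and without CKS1B shRNA array B (orange). YES1 202933_s_at lies at 1.78 and 1.36, and LYN and CSK move from below 0 to near or above 0 without array B.

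LYN read 2709, 748 and 2546 at 202625_at with the CKS1B shRNA (arrays A, B and C), against 2117, 1999 and 1758 with the scrambled shRNA. Arrays A and C lay above the scrambled arrays and array B below them, and the log2 difference was -0.17 (SE 0.50) with 6 arrays and 0.42 (SE 0.25) without array B. The LYN probe set 202626_s_at read 2444, 281 and 1571 with the CKS1B shRNA and 2299, 1704 and 1785 with the scrambled shRNA. The LYN probe set 210754_s_at read 3231, 587 and 1934 with the CKS1B shRNA and 3529, 2560 and 1914 with the scrambled shRNA. At both of these arrays A and C overlapped the scrambled arrays, and the differences were -0.88 and -0.74 with 6 arrays, and 0.04 and -0.05 without array B.

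CSK read 4160, 326 and 2760 at its only probe set with the CKS1B shRNA, against 3008, 3120 and 1773 with the scrambled shRNA. Without array B the groups overlapped, with a log2 difference of 0.41 (SE 0.30). It was -0.70 (SE 0.78) with 6 arrays, array B reading at 0.124 of the scrambled mean.

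FYN read 1626, 1645 and 1294 at 210105_s_at with the CKS1B shRNA, against 1855, 1859 and 1285 with the scrambled shRNA. The groups overlapped and array B did not stand apart, at 0.987 of the mean with the scrambled shRNA. The log2 difference was -0.12 (SE 0.36) with 6 arrays and -0.18 (SE 0.27) without array B. At 216033_s_at FYN read 619, 238 and 437 with the CKS1B shRNA and 669, 615 and 336 with the scrambled shRNA (log2 difference -0.35, and 0.01 without array B).

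SRC read 134, 683 and 246 at 1558211_s_at with the CKS1B shRNA, against 236, 219 and 437 with the scrambled shRNA, and the groups overlapped (log2 difference 0.01, SE 0.61, and -0.59, SE 0.48, without array B). The 7 SRC probe sets had differences from -0.38 to 0.52 with 6 arrays and from -0.59 to 0.35 without array B. The 2 LCK probe sets had differences of 1.13 and 1.18 with 6 arrays, and 0.24 and -0.58 without array B. For BLK they were 0.75 and -0.12, and -0.09 and -0.33 without array B, and the FGR probe set had 0.79 with 6 arrays and 0.37 without array B.

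The direction in which CKS1B shRNA array B departed differed between dim and bright member probe sets. Of the 11 member probe sets with a scrambled mean under 100, 10 read above that mean on array B, against 3 on each of arrays A and C, while 85.5% of all such probe sets did so on array B. The exception was SRC 1565080_at, which read 52.0, 35.9 and 66.5 with the CKS1B shRNA and 62.5, 81.9 and 67.0 with the scrambled shRNA. Of the 7 with a scrambled mean of 1000 or more, those of LYN and CSK, 2 of YES1 and 1 of FYN, 1 read above that mean on array B (YES1 202933_s_at), where arrays A and C had 6 and 4. The FYN probe set 243006_at, with a scrambled mean of 115, read 736 on array B, against 80.5 and 83.9 on arrays A and C and 78.9 to 145.8 with the scrambled shRNA. The LCK probe set 204890_s_at likewise read 65.2, 375 and 31.0 with the CKS1B shRNA, against 23.7, 37.5 and 51.1 with the scrambled shRNA.

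**Figure D4:**
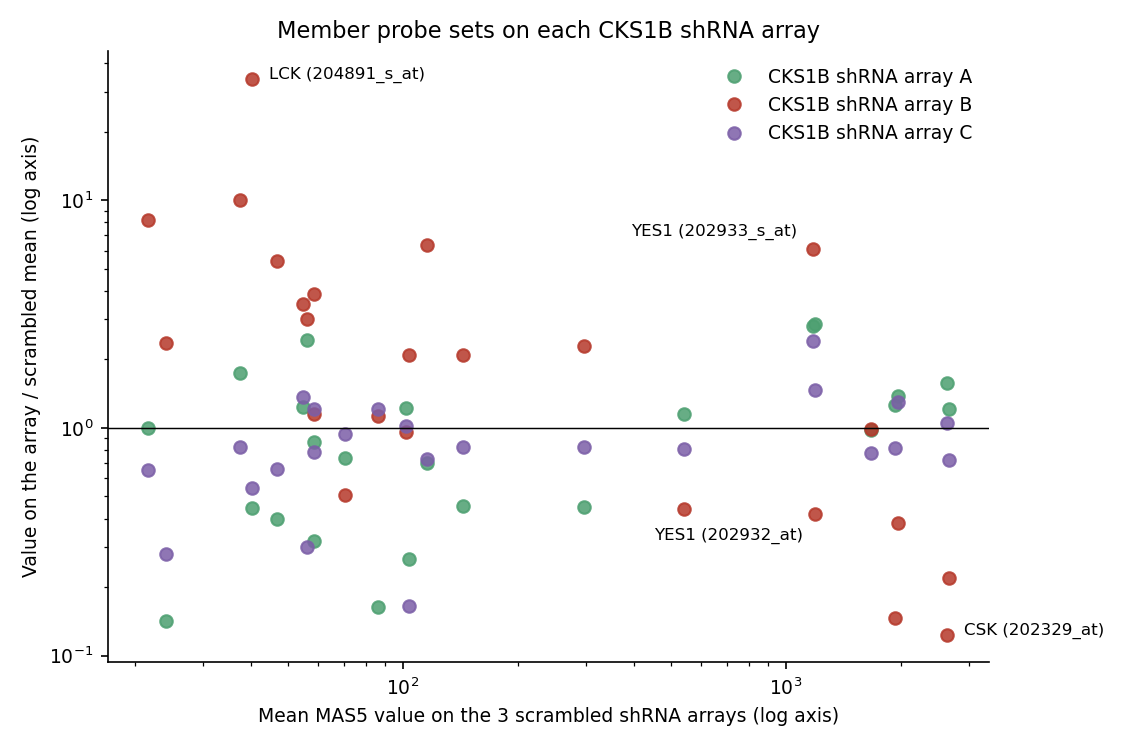
Value of each member probe set on the 3 CKS1B shRNA arrays relative to its scrambled mean (log axis) against that mean (log axis). On array B most dim probe sets, such as LCK 204891_s_at, lie above 1 and most bright ones lie below 1, with YES1 202933_s_at at 6.12 as the bright one well above it.

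Counted by whether the groups overlap, 1 of the 24 member probe sets was higher with the CKS1B shRNA without overlap, YES1 202933_s_at, which chose the family, and 0 were lower. Over all probe sets these shares were 4.17% and 3.6%. Without CKS1B shRNA array B, 3 of 24 were higher, both bright probe sets of YES1 and LYN 202625_at, against 7.99% of all probe sets. YES1 led to the choice of the family in this contrast, so its probe sets do not count as a result here. Of the 21 probe sets of the other members 1 was higher. The 1 that was lower was FYN 1559101_at, which read 27.5 and 17.1 on arrays A and C against 42.4 to 209 on the scrambled arrays, where 13.7% of all probe sets were lower.

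Genes that act on or with the Src kinases were read from 5 lists of 56 genes, of which 51 were analysed here. With 6 arrays 0 of their probe sets passed an adjusted p of 0.05 in limma, in either direction, and 0 passed without CKS1B shRNA array B. Over all probe sets 58.1% were higher with 6 arrays and 38.8% without array B, so that counts of higher and lower are read against these shares. Among the enzymes and carriers for acylation and trafficking, 12 of 21 probe sets were higher and 9 lower with 6 arrays (median log2 difference 0.07), and 13 and 8 without array B (median 0.07). METAP2, a methionine aminopeptidase that exposes the N-terminal glycine to be myristoylated, read 545.5, 359 and 384 at 227993_at with the CKS1B shRNA, against 1089, 1131 and 1047 with the scrambled shRNA. The groups did not overlap, with a log2 difference of -1.33 (SE 0.36, adjusted p = 1.0 in limma) and -1.22 without array B (adjusted p = 0.502). The METAP2 probe set 209861_s_at read 3358, 1434 and 1879 with the CKS1B shRNA, against 4790, 4281 and 3283 with the scrambled shRNA, where array A overlapped the scrambled range (log2 difference -0.96, SE 0.45, and -0.69 without array B). Of the 21 probe sets of this list, 1 was higher and 1 lower without overlap with 6 arrays, against 4.17% and 3.6% of all probe sets. Without array B, 3 were higher and 2 lower, against 7.99% and 13.7% of all.

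Of the phosphatases, adaptors and ubiquitin ligases that regulate the kinases, 28 of 50 probe sets were higher and 22 lower with 6 arrays (median 0.10), and 16 higher and 34 lower without CKS1B shRNA array B (median -0.19). CBL, a ubiquitin ligase that marks active tyrosine kinases for degradation, read 211, 20.8 and 90.6 at 206607_at with the CKS1B shRNA, against 240, 221 and 288 with the scrambled shRNA (log2 difference -1.46, SE 0.76, adjusted p = 1.0 in limma). Without array B it was -0.76 (SE 0.50). PTPN22, a phosphatase that acts on LCK in T cells, read 73.6, 300.1 and 61.6 at 208011_at with the CKS1B shRNA, against 21.7, 30.8 and 44.6 with the scrambled shRNA (log2 difference 1.45, SE 0.83), and the difference without array B was 0.81 (SE 0.70). This PTPN22 probe set was dim, below the array median on all 6 arrays. At the CBL and the PTPN22 probe set the groups did not overlap. Of the 50 probe sets of this list, 1 was higher and 2 lower without overlap with 6 arrays, against 4.17% and 3.6% of all probe sets. Without array B, 2 were higher and 11 lower, against 7.99% and 13.7% of all.

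Of the adhesion and cytoskeletal substrates, 23 of 38 probe sets were higher and 15 lower with 6 arrays (median 0.06), and 15 higher and 23 lower without CKS1B shRNA array B (median -0.20). CTTN, cortactin, an actin-binding substrate of Src, read 428, 720 and 440 at 201059_at with the CKS1B shRNA, against 208, 233 and 420 with the scrambled shRNA, so that the groups did not overlap (log2 difference 0.87, SE 0.45, and 0.63 without array B). PTK2B, a focal adhesion kinase of blood cells, read 657, 123 and 259 at 203110_at with the CKS1B shRNA, against 604, 534 and 835 with the scrambled shRNA, with array A inside the scrambled range (log2 difference -1.17, SE 0.56, and -0.62 without array B). Of the 38 probe sets of this list, 2 were higher and 1 lower without overlap with 6 arrays, against 4.17% and 3.6% of all probe sets. Without array B, 4 were higher and 2 lower, against 7.99% and 13.7% of all.

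Of the B cell receptor partners, 15 of 22 probe sets were higher and 7 lower with 6 arrays (median 0.35), and 7 and 15 without CKS1B shRNA array B (median -0.22). CD79B, a chain of the receptor, read 139.6, 308 and 185 at 1555746_at with the CKS1B shRNA, against 59.4, 16.4 and 132 with the scrambled shRNA (log2 difference 1.60, SE 0.79, and 1.31 without array B). PLCG2, the phospholipase downstream of the receptor, read 23.3, 151 and 52.3 at 230917_at with the CKS1B shRNA, against 8.6, 7.6 and 40.4 with the scrambled shRNA (log2 difference 1.26, SE 0.81, and 0.70 without array B). This PLCG2 probe set read above the array median on 0 of 6 arrays, and the CD79B probe set on 2. Of the kinases related to the family, 4 of 6 probe sets were higher and 2 lower with 6 arrays (median 0.16), and 2 higher and 4 lower without array B (median -0.20). The 2 probe sets of smallest p were both of PTK6, a kinase of epithelia. At 206482_at the log2 difference was 0.94 with 6 arrays and -0.23 without array B. At 1553114_a_at it was -0.49 with 6 arrays and -1.58 (SE 0.67, adjusted p = 0.852 in limma) without array B, where the groups did not overlap. Without array B, 0 of the 6 probe sets were higher and 1 lower without overlap, against 7.99% and 13.7% of all probe sets.

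The probe sets most like YES1 202933_s_at, by the Pearson correlation of log2(value + 16) over the 6 arrays and among 22482 probe sets of other genes at or above the median level, were those of COMMD2 (r = 0.998), HLA-DOB (0.998), GOLT1B (0.996), SSR3 (0.994) and FOXP1 (0.993). Without CKS1B shRNA array B they were those of RSU1, GPC6, GOLT1B, RHOBTB3 and COMMD2, at 0.998 to 1.0 over 5 arrays, so that 2 of 5 were shared. FOXP1, a forkhead transcription factor of B cells, read 1825, 2912 and 1636 at 224838_at with the CKS1B shRNA, against 1194, 1097 and 1135 with the scrambled shRNA. FOXP1 was not among the 5 without array B. It was picked for its likeness to a probe set that this contrast chose, so the direction of its values followed from the choice. With few arrays and so many probe sets such correlations are a description of these arrays only. Among the other members, the highest value without array B was that of LYN 202625_at, 0.907, which was -0.54 with all 6 arrays.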

How the data were processed

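Total RNA of JJN3 was measured on 6 arrays, grouped from the sample titles. The deposited table holds a linear intensity for each probe set on each array. The authors computed it with MAS5, per the submitters' processing notes (version and parameters: not given in the sources used here). A 2% trimmed mean was 500.0 to 500.1 on every array, which equalises means but not the width of the distributions. Of 54675 probe sets, 62 controls were left out. Gene names were those of the platform annotation: 41091 probe sets had 1 gene, 1801 several and 11721 none here. No probe set with several genes held a member.

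Values were turned into log2(value + 16), with no filter, and tested in limma 3.58.1 (R 4.3.3; lmFit, then eBayes with trend and without covariates), with Benjamini-Hochberg adjustment over all 54613 probe sets and a threshold of 0.05. Every probe set was kept because the rule takes all of them, and a filter at the median level would have kept 9 of 24. Named genes were the members, CKS1B, the 2 probe sets of smallest p in each list, where none passed, and the 5 probe sets most like YES1, while CD3E, CD3D and CD8A were named after their values were seen. Members and lists were chosen with earlier results of these data known. The script was tested on simulated data. Promoter windows came from RefSeq. Alternatives were other pseudocounts, filters, normalizations, thresholds, array weights, the letter as a block and leaving out arrays. Figures used matplotlib 3.10.9. Precision is limited by the number of arrays.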

Additional observations from a re-analysis of the deposited data

How the results depend on the processing

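At YES1 202933_s_at the log2 difference stayed between 1.31 and 2.04 under all 17 alternatives, and at 202932_at between -0.33 and 1.04 under the 16 that kept that probe set, lowest without CKS1B shRNA array A and highest without array B. The sign of the difference was turned at 11 of the 24 member probe sets without CKS1B shRNA array B, at 11 without both arrays of letter B, at 10 with quantile normalization and array B left out, at 5 with array weights, and at 0 to 4 of the probe sets kept under each other alternative. With array weights the limma threshold was passed by 86 probe sets, among them 1 member, YES1 202933_s_at. This contrast chose that probe set and the alternatives refit the same arrays. Neither its pass nor the range of its difference is therefore a test of YES1. Without both arrays of letter B 16 passed and with quantile normalization and array B left out 2, and 0 to 11 when 1 array was left out (11 without CKS1B shRNA array B), with 0 members among them. The CKS1B difference passed with array weights (-3.62), without both arrays of letter B (-3.59) and with quantile normalization and array B left out (-3.69), and ranged from -4.41 to -3.63 when 1 array was left out, passing only without CKS1B shRNA array B. With the letter as a replicate block it was -4.02 and 0 probe sets passed. The correlation of deviations from the group mean was 0.35, -0.16 and -0.15 for arrays of the same letter (A, B and C). Between different letters it was -0.38 to 0.33. The titles number the arrays of each letter consecutively. With 3 arrays per group, whose deviations sum to 0, this check cannot tell whether the letters pair the arrays. The number of members above the threshold on all arrays was 3 at the 75th percentile (FYN, LYN and YES1), 2 at the 90th percentile of the other-tissue list (FYN and YES1), 2 with probe sets without a suffix (LYN and YES1) and 5 without CKS1B shRNA array B. Dim probe sets limit the reading of LCK, BLK, FGR and most of SRC, and of PTPN22 208011_at, PLCG2 230917_at and PTK6 206482_at.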
